A study of Mus musculus with 5 samples.

Results

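Nucleases that clear DNA and RNA before innate receptors can sense them were followed in mouse dendritic and myeloid progenitors. The 7 genes are Pld3, Pld4, Rnase6, Rnase4, Dnase2a, Trex1 and Samhd1. They were chosen by function, with the CDP and CMP values of these same arrays already known, so their differences between the groups are described here without a test and support nothing beyond themselves. Every probe set annotated to exactly 1 of these symbols was taken, which gave 10 of 45037 probe sets, for 6 of the 18193 genes named in this way. Trex1 had no probe set annotated to it alone and is not analysed here.

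The arrays compared 2 populations from the marrow of wild type C57BL/6 mice. The 3 CDP arrays held common dendritic cell progenitors, lineage-negative, Sca-1-negative, CD34-positive and Flk2-positive cells with intermediate c-kit and CD115 on their surface. The 2 CMP arrays held common myeloid progenitors, also lineage-negative, Sca-1-negative, CD34-positive and Flk2-positive, with high c-kit and without CD11c or CD115. Both lacked CD16 and CD32, were sorted and then sorted again, and gave RNA from 10000 to 30000 cells that was amplified over 2 cycles. The animals' age and sex, and whether arrays came from separate or pooled animals, are not given in the sources used here, so the spread between arrays may be technical.

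Endosomal Toll-like receptors and the cytosolic sensor cGAS respond to nucleic acid, including a cell's own, and nucleases in each compartment set how much ligand reaches them. PLD3 and PLD4 are exonucleases of endosomes and lysosomes that trim single-stranded DNA and RNA from the 5′ end. RNase 4 and RNase 6 are small secreted enzymes of the RNase A superfamily. DNase II, the product of Dnase2a, is the acid endonuclease that digests engulfed DNA in lysosomes. TREX1 is a 3′ exonuclease of the cytosol, and SAMHD1 removes the phosphates of deoxynucleotides and so limits DNA synthesis. Dendritic cells and macrophages take up much foreign and dead-cell nucleic acid, and loss of several of these enzymes is known to cause inflammation.

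Values are deposited log2 expression values, and log2 5 was taken as the detection level. On each array 34.0% to 35.8% of probe sets reached it. CDP 1 and CMP 1 were low in the 5′ beta-actin control, at log2 6.54 and 6.71 against 10.52 to 12.97 on the others, so differences are also given within these kinds of array. Likeness between arrays did not follow population alone. CMP 1 correlated at 0.924 with CDP 1 and 0.895 with CMP 2, and CMP 2 at 0.911 with CDP 2. The closest arrays were CDP 2 and CDP 3, at 0.974. CDP 2 stood apart through neutrophil transcripts and some others. Alas2, an erythroid gene, read log2 8.80 on CDP 2 and 2.26 on each other array. Of 10 neutrophil markers, 9 were detected on CDP 2 and 0 on each other array, and their summed log2 level was 14.22 there against 5.90 to 6.33 elsewhere. The sorting genes ran with their labels in part. Kit was called lower in CDP and Itgax, which encodes CD11c, higher. Itgax read log2 6.38 to 7.78 in CDP and 2.26 on both CMP arrays. It was thus tested through CDP alone, which leans toward a difference. The other 5 of 7 gate genes did not pass on their brightest probe set. Csf1r, which encodes CD115, was among these 5, at log2 12.94 to 13.16 in CDP and 11.03 and 11.75 in CMP (limma, adjusted p = 0.0966), and its second probe set was called higher, by 2.13 (adjusted p = 0.0355). Fcgr2b, which encodes CD32, read log2 8.72 to 10.25 on its brightest probe set, though both populations were sorted as lacking CD32. The arrays measure transcript and the sort surface protein, so the 2 need not match. Fcgr3, which encodes CD16, lay near detection, at 4.60 to 5.40. Markers that define B, T and NK cells (6 genes) lay below detection on every array.

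The upstream sequences of Pld4 and Rnase6 are shown because these members had the largest differences between the populations. They are RefSeq windows of build GRCm38.p6, from 250 bases before to 50 bases after the annotated start. Capitals mark the letters GAGGAA, the ETS core found in sites of the myeloid factor PU.1, and GAAANNGAAA, an interferon regulatory factor (IRF) element, on either strand. The Pld4 window is chr12:112760405-112760704 on the plus strand, and the Rnase6 window is chr14:51128814-51129113 on the plus strand.
Pld4: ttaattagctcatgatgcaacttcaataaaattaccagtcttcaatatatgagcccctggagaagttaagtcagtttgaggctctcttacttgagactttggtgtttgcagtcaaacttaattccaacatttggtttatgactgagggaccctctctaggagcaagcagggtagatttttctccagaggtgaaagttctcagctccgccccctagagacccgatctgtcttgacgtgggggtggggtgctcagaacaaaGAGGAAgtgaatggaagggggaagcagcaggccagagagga
Rnase6: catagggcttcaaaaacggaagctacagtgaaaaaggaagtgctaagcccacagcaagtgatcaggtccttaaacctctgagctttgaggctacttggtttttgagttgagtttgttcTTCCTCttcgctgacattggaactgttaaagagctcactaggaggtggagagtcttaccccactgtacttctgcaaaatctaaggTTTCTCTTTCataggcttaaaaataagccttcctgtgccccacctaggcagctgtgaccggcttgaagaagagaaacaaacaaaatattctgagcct

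In the Pld4 window the only match was GAGGAA, beginning 10 bases into the transcript on the gene's strand. In the Rnase6 window GAGGAA lay on the opposite strand, and the same window held an IRF element on the opposite strand. Another Rnase6 start, slightly upstream, gave a window with the same matches, and the remaining, more distant one held none. GAGGAA occurred in 28.3% of all 32851 windows and GAAANNGAAA in 3.44%, so the first is a common string. The composite ETS-IRF string GGAANNGAAA, in 2.72% of all windows, and the E-box CACGTG, in 7.15%, were in 0 of the 11 windows of the 7 genes. Pld3 held an IRF element near the far end of its window, and 1 of the Trex1 windows held GAGGAA. The IRF element and GGAANNGAAA can overlap in sequence, but no overlapping matches were found here. A match is a run of letters and does not show binding.

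The windows also differed in base composition. The window poorest in CpG was 1 of the 2 of Rnase4, with 2 CpG and an observed to expected ratio of 0.13, while the other Rnase4 window was at 0.36. Those of Pld4 and Rnase6 also held few CpG, with 3 CpG and a ratio of 0.19 for Pld4, and 3 to 4 CpG and ratios of 0.20 to 0.27 for the 3 Rnase6 starts. The 2 Trex1 windows were at 0.20 and 0.30. Samhd1 was at the other end, with 29 CpG in its window, a ratio of 0.91 and 65.7% GC. Dnase2a and Pld3 resembled it, at ratios of 0.78 and 0.72. Over all windows the median was a ratio of 0.38 and 52.7% GC. With 7 genes this is a description, and no relation to expression was tested.

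**Figure D1:**
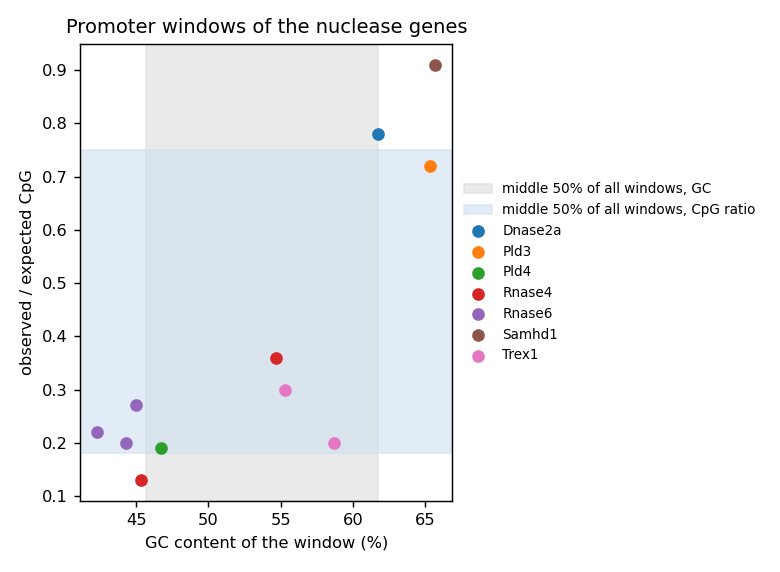
Each point is 1 promoter window of 300 bases, with its GC content (%) on the x axis and its observed to expected CpG ratio on the y axis, coloured by gene; the shaded bands hold the middle 50% of all 32851 windows. The Pld4 and Rnase6 windows lie at ratios of 0.19 to 0.27, and the Samhd1 window at 0.91.

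Of the endolysosomal exonuclease genes Pld3 and Pld4, only Pld4 reached detection. Pld4 was clear on all CDP arrays and undetected on both CMP arrays. Its probe set 1433678_at read log2 7.80, 10.07 and 9.81 on CDP 1, CDP 2 and CDP 3, against 3.02 and 4.24 on CMP 1 and CMP 2. The groups did not overlap, and CDP 1 was the lowest of the CDP arrays. The means were 9.22 ± 1.24 (SD, n = 3) and 3.63 ± 0.86 (SD, n = 2), a difference of 5.59 ± 0.78 (SE of the fit) on the log2 scale. Since both CMP arrays were below detection, only a lower bound of the fold can be given, with values below log2 5 set to 5. It was at least 18.7-fold higher in CDP, and at least 30.6-fold without CDP 1. Within the arrays low in 5′ signal the log2 difference was 4.78, and within the others 5.70. In sorted populations, fewer cells carrying a transcript and less transcript per cell cannot be told apart.

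Pld3 was not detected in either population. Its 1 probe set, 1416013_at, read log2 2.63, 4.88 and 4.21 in CDP and 3.88 and 3.88 in CMP, all below 5, so it was not tested and no fold is given. CDP arrays lay on both sides of the CMP arrays, and the sign of the log2 difference, 0.03, changed with the scaling (-0.14 after quantile normalization). A reading below detection on a single probe set does not show that the transcript is absent.

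Among the RNases, Rnase6 had the tightest separation. Its probe set 1430534_at read log2 10.61, 11.40 and 10.79 in CDP and 5.88 and 5.83 in CMP, all above detection. The lowest CDP array thus stood far above both CMP arrays, which were nearly equal. Means were 10.93 ± 0.42 (SD, n = 3) and 5.85 ± 0.04 (SD, n = 2), a difference of 5.08 ± 0.36 (SE), or 33.8-fold. Leaving out any 1 array kept it between 28.7-fold and 37.8-fold, and the log2 difference was 4.73 within the arrays low in 5′ signal and 5.27 within the others. Without CDP 2, the array with neutrophil transcripts, Rnase6 was 28.7-fold higher and Pld4 at least 13.9-fold higher in CDP.

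Rnase4, a neighbour of Rnase6, hovered at the detection level. On 1422603_at it read log2 4.67, 5.11 and 5.34 in CDP and 4.76 and 3.52 in CMP. The groups overlapped, since CDP 1 was below CMP 1. It entered the tested set only through CDP 2 and CDP 3, and a probe set that passes through 1 group alone leans toward a difference. That difference was 0.90 ± 0.47 (SE), with means of 5.04 ± 0.34 (SD, n = 3) and 4.14 ± 0.87 (SD, n = 2). It was -0.09 within the arrays low in 5′ signal and 1.70 within the others, and fell to 0.28 without CMP 2.

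Rnase4 and Rnase6 lie on chromosome 14 in a run of RNase A genes, with only Eddm3b annotated between them, and Rnase4 and Ang start at the same annotated base. The other genes of that family gave little signal. Of 10 further genes of the RNase A and RNase T2 families and their inhibitor with a probe set, 9 stayed below log2 5 on every array, among them Ang (at most 4.66), Ang2, Rnase1, Rnase2a, Rnase2b and Rnaset2a (at most 2.28). The last, Rnh1, the cytosolic inhibitor that binds RNases of this family, was detected throughout at log2 8.68 to 11.49. It read 1.83 higher in CDP without passing (limma, adjusted p = 0.177), and passed with a term for low 5′ signal (adjusted p = 0.0182). The fold was 3.55 with all arrays, 2.24 without CMP 1 and 5.62 without CMP 2. It is named as the single tested gene of its list, a choice made after its values were seen.

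**Figure D2:**
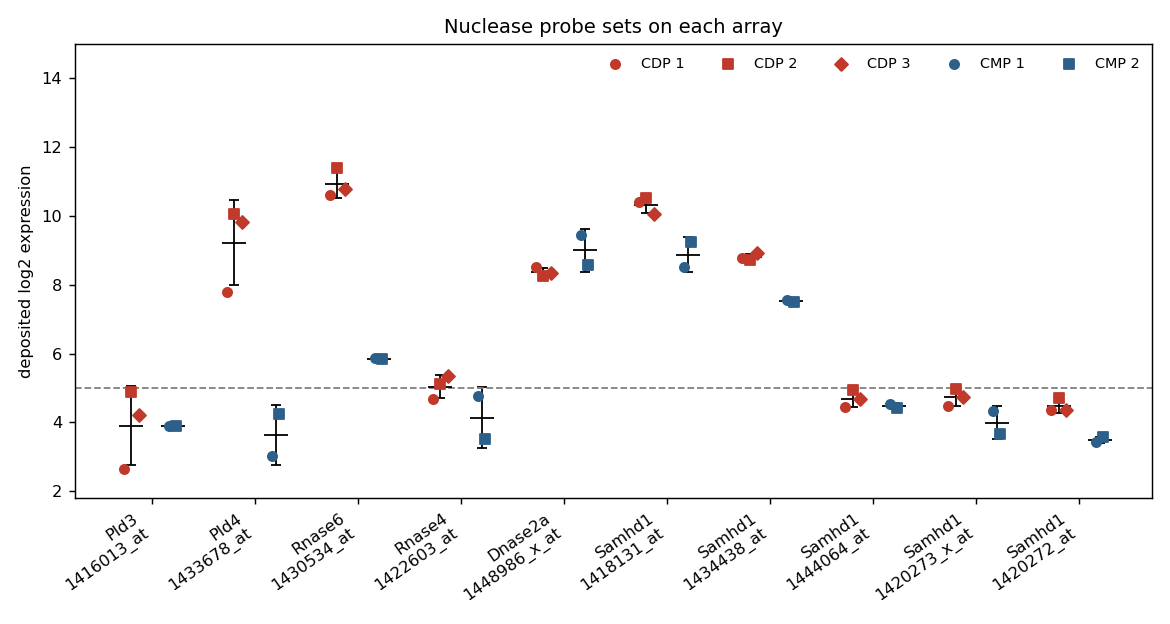
Deposited log2 expression (y axis) of the 10 nuclease probe sets (x axis, gene and probe set) on each array, CDP in red and CMP in blue; horizontal marks are group means, bars are 1 SD (n = 3 and n = 2) and the dashed line is the detection level of log2 5. Pld4 and Rnase6 are widely separated, with CDP at 7.80 to 11.40 and CMP at 3.02 to 5.88, while Pld3 and 3 of the 5 Samhd1 probe sets stay below the line.

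Of the DNases, Dnase2a ran slightly the other way. On 1448986_x_at it read log2 8.51, 8.26 and 8.35 in CDP and 9.45 and 8.56 in CMP. All CDP arrays lay below both CMP arrays, though CDP 1 and CMP 2 were close. The difference was -0.63 ± 0.38 (SE), with means of 8.37 ± 0.13 (SD, n = 3) and 9.01 ± 0.63 (SD, n = 2), that is 1.55-fold lower in CDP. It rests largely on CMP 1, since it was 1.14-fold without CMP 1 and 2.11-fold without CMP 2. The suffix of this probe set marks it as able to match other transcripts. A second Dnase2a probe set is also annotated to a neighbouring gene and was left out.

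Samhd1, the only member with several probe sets, was detected in both populations on its 2 bright ones. On 1418131_at it read log2 10.41, 10.52 and 10.06 in CDP and 8.51 and 9.23 in CMP. On 1434438_at it read 8.77, 8.72 and 8.92 in CDP and 7.56 and 7.51 in CMP. On both, each CDP array was above each CMP array. The first gave a difference of 1.46 ± 0.37 (SE), or 2.75-fold, and the second 1.26 ± 0.30, or 2.40-fold. The first was 1.90 within the arrays low in 5′ signal and 1.06 within the others, and the second 1.21 and 1.30. The other 3 probe sets (1444064_at, 1420273_x_at and 1420272_at) lay between 3.43 and 4.98, below detection on all arrays, and were not tested. All of their mean differences were positive, from 0.22 to 0.98, and the groups did not overlap on 2 of them.

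Taking all 10 probe sets, 6 passed the filter of at least 2 arrays at log2 5 and 4 did not, and those of Pld4 and Rnase4 passed through CDP alone. Of the 6 tested, 4 had every CDP array above every CMP array, as did 21.2% of all 16552 tested probe sets. On 1, that of Dnase2a, every CDP array was below, as on 11% of all, and on 1 the groups overlapped. In the limma fit over all tested probe sets, 2 of the 6 (Pld4 and Rnase6) were called higher in CDP, where 1.31% of all were, and 0 were called lower, where 0.423% were. Nothing is read from these counts, because the members were picked from this contrast's known values. With a term in the fit for low 5′ signal (CDP 1 and CMP 1 against the others, called the 5′ signal block), the differences of the 2 Samhd1 probe sets were 1.42 ± 0.32 (SE) and 1.26 ± 0.26. Over 15 alternative settings, of which those on filters and variance leave a difference as it is, the sign held for each probe set other than that of Pld3, for which it held in 9. Pld4 ranged from 4.98 to 6.31 and Rnase6 from 4.84 to 5.24 on the log2 scale.

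**Figure D3:**
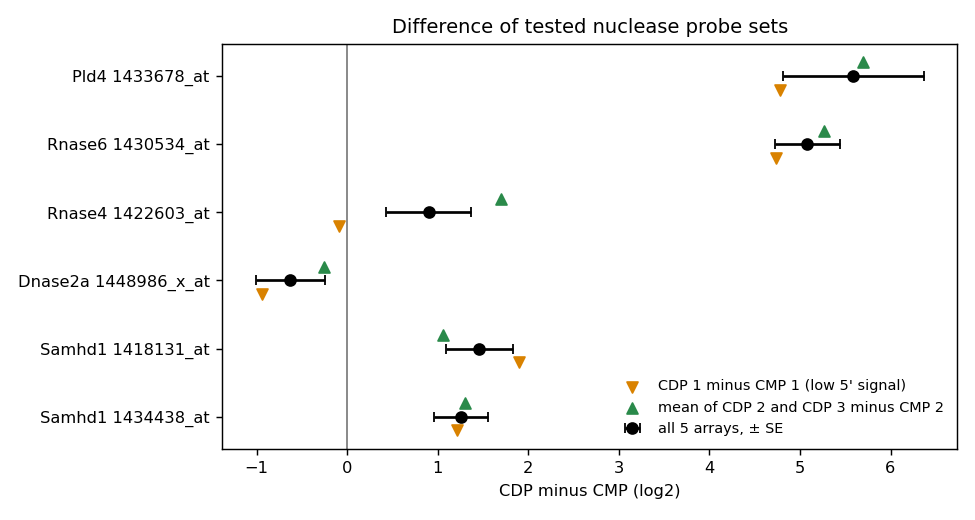
CDP minus CMP (log2, x axis) for the 6 tested nuclease probe sets (y axis): circles with bars are the difference over all 5 arrays ± SE of the fit, downward triangles CDP 1 minus CMP 1, and upward triangles the mean of CDP 2 and CDP 3 minus CMP 2. For Pld4 the values are 5.59, 4.78 and 5.70, and for Rnase4 the triangles fall on both sides of 0, at -0.09 and 1.70.

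Some marker genes of mature phagocytes also read higher on the CDP arrays, while most defining ones were undetected. Of 11 macrophage markers, 4 were detected on any array, and C1qa, C1qb, C1qc, Mertk, Mrc1, Cd5l and Fcgr1 were below log2 5 on all. The summed log2 level of the list was 9.96 to 10.60 in CDP and 8.38 to 8.45 in CMP, and its brightest gene was Cd163. Cd163 was called higher in CDP (limma, adjusted p = 0.0498), and the other 2 tested genes of the list did not pass. Of 9 plasmacytoid dendritic cell markers, 5 were detected on any array, with sums of 10.44 to 11.01 in CDP and 10.02 to 10.22 in CMP, while Siglech, Ccr9, Ly6d and Pacsin1 were below log2 5 throughout. Most of these sums came from Tcf4, at 10.29 to 10.61 in CDP and 9.81 on both CMP arrays. The 4 tested genes of this list did not pass. Of 10 conventional dendritic cell markers 4 were detected on any array, with sums of 11.24 to 11.58 in CDP and 9.98 to 10.19 in CMP. Most of these sums came from Flt3, at 10.76 to 11.02 in CDP and 9.88 and 10.06 in CMP. Flt3 encodes Flk2, for which both populations were sorted, so these sums are not specific to mature cells. Flt3 did not pass, but the other 2 of the list's 3 tested genes, Itgax and Clec10a, were called higher in CDP. Among all tested genes 1.67% were called higher. Clec10a read log2 8.57, 9.41 and 9.15 in CDP and 4.16 and 5.73 in CMP (limma, adjusted p = 0.0329). Mast cell and basophil markers ran the other way. Of 7, 3 were detected on any array, with sums of 6.67 to 6.94 in CDP and 9.76 to 10.89 in CMP, and 2 were called lower in CDP. Hdc, which encodes histidine decarboxylase, read log2 4.55, 5.42 and 4.55 in CDP and 10.29 and 8.93 in CMP. Cpa3, a mast cell carboxypeptidase, was at 2.26 on each CDP array and at 8.76 and 6.25 in CMP, and entered the tested set through CMP alone. Of 6 erythroid markers 3 were detected on any array, and their sums overlapped, at 6.06, 10.56 and 7.47 in CDP and 9.47 and 7.98 in CMP. The part of such cells in the nuclease values was not tested.

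Genes with array profiles most like those of the members were sought among 8444 other tested genes. The measure was the root-mean-square difference between log2 profiles over the 5 arrays, each centred on its own mean, for members spanning at least 2 log2 units. Nearest to Rnase6 were S100a4 (0.20), Fn1 (0.27) and P2ry10 (0.28). All were below detection on both CMP arrays, at log2 3.01 to 4.24, where Rnase6 was detected at 5.88 and 5.83. Nearest to Pld4 were Ptpro (0.51), Plbd1 (0.54) and Upb1 (0.55), so even the closest matches were looser than for Rnase6. Like Pld4, these genes were below detection on both CMP arrays. For the brighter Samhd1 probe set the nearest were Ap3m2 (0.13), Gdap2 (0.14) and Prkag2 (0.15). Of these, Ap3m2 was below detection on both CMP arrays, at log2 3.90 and 4.25. Pld3, whose values were all below detection, was nearest to Dock8 (0.20), Zfp383 (0.23) and Emd (0.24), a likeness between undetected and detected values. These are profiles over few arrays that share libraries, and they carry no test.

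The other genes of nucleic acid clearance and sensing were taken from 9 lists by function, in which 140 genes had a probe set and 97 were tested, at 1 probe set a gene. These lists were made with earlier results of these data known, so their counts are a description and not independent support. Of the 97, 7 rose in CDP, 0 fell and 90 did not pass (limma, adjusted p under 0.05 over all probe sets), against 1.67% of all 8449 tested genes called higher and 0.473% called lower. At an unadjusted p under 0.05, 17 of the 97 were higher and 3 lower, where 12.6% and 4.52% of all tested genes were. Of the 7, Lgmn, Dnase1l1 and Pld2 were below detection on both CMP arrays. They passed the filter through CDP alone, which leans toward a difference, so their p-values carry that limit. Of the 92 tested pathway genes detected on at least 1 array of each group, 4 rose and 0 fell, beside 0.861% and 0.32% of the 8132 such genes. The median log2 difference of all 97 tested pathway genes was 0.19, beside 0.17 over all tested genes. The calls rest on all 5 arrays being present. Without CDP 1, 1 gene was called higher, and without CDP 2, CDP 3, CMP 1 or CMP 2, 0 were (13, 13, 13 and 17 at an unadjusted p under 0.05). With a block for 5′ signal 15 were higher and 1 lower.

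In the endosome, the transcripts of the receptors themselves were not detected. Tlr3, Tlr7, Tlr9 and Tlr13 stayed at or below log2 2.78, 4.22, 2.56 and 3.81 on every probe set and array, and Tlr8 was below 5 as well. Unc93b1, which carries these receptors to endosomes, was detected on all arrays, at log2 8.90, 10.69 and 10.33 in CDP and 6.24 and 7.97 in CMP. Every CDP array was above both CMP arrays, but each group spread widely. The difference was 2.87 ± 0.73 (SE), or 7.30-fold, and did not pass (limma, adjusted p = 0.137). It passed with the 5′ signal block (adjusted p = 0.00595), and was 4.003-fold without CMP 1 and 13.3-fold without CMP 2. Irf5, a transcription factor that acts downstream of these receptors, rose 5.13-fold, from 6.77 ± 0.56 (SD, n = 2) to 9.13 ± 0.19 (SD, n = 3, limma, adjusted p = 0.0453). Its second probe set was below detection on every array, at log2 2.84 to 4.49. Of 13 tested genes of receptors and their signalling, Irf5 rose and 12 did not pass, and the median difference was 0.19.

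Of 6 tested genes of receptor-cleaving or lysosomal proteases, Lgmn and Ctss rose and 4 did not pass. Lgmn encodes legumain and Ctss cathepsin S, both lysosomal cysteine proteases, and legumain is among the enzymes known to cleave endosomal Toll-like receptors. Lgmn was at log2 7.81, 8.49 and 8.57 in CDP and 2.61 and 2.82 in CMP, at least 9.77-fold higher (limma, adjusted p = 0.00785, tested through CDP alone), and its call alone held without CDP 1 (adjusted p = 0.0310). Ctss went from 11.57 ± 0.30 (SD, n = 2) to 13.68 ± 0.22 (SD, n = 3), a rise of 4.30-fold (limma, adjusted p = 0.0453).

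**Figure D4:**
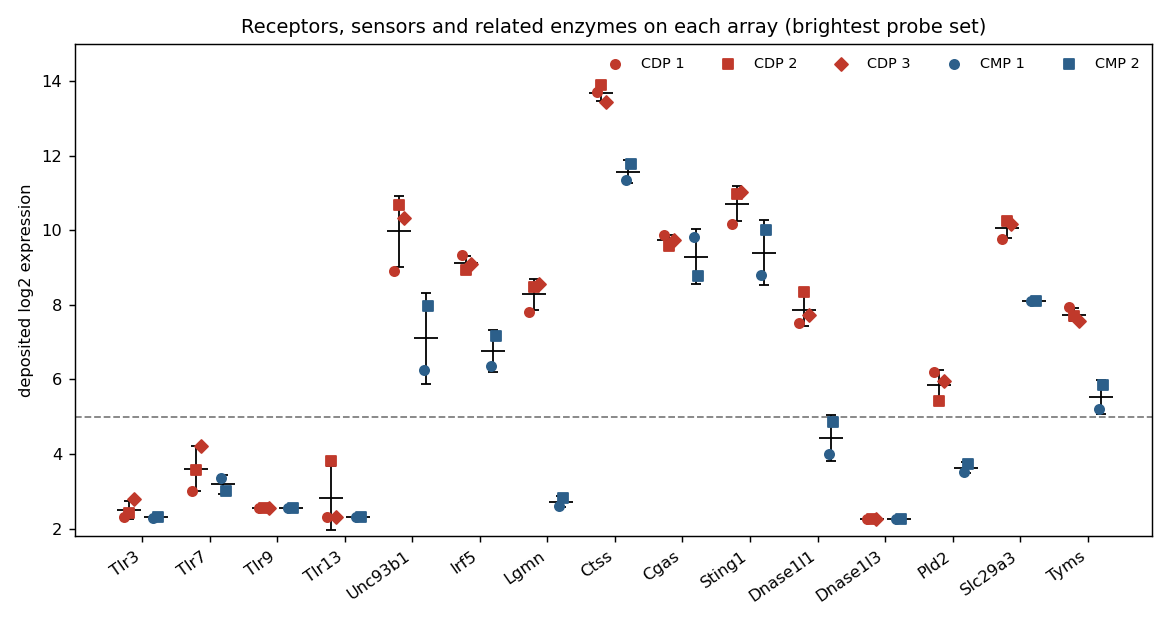
Deposited log2 expression (y axis) on each array of 15 genes of nucleic acid sensing and clearance (x axis, brightest probe set of each), CDP in red and CMP in blue, with group means, bars of 1 SD (n = 3 and n = 2) and the detection level of log2 5 dashed. Tlr3, Tlr7, Tlr9, Tlr13 and Dnase1l3 lie below the line on all arrays, while Unc93b1, Cgas and Sting1 lie above it on all arrays.

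The cytosolic sensing genes include those of DNA sensing, the side of the pathway that TREX1 and SAMHD1 restrain, and those of RNA sensing. Of 24 with a probe set, 3 were below log2 5 on every array and 21 were tested. Of the 21, 0 passed in either direction, and the median difference was 0.15. Cgas, which encodes the DNA sensor cGAS, was at log2 9.74 ± 0.15 (SD, n = 3) in CDP and 9.30 ± 0.73 (SD, n = 2) in CMP, and its groups overlapped. Its difference of 0.44 ± 0.40 (SE) did not pass (limma, adjusted p = 0.666). Sting1, the adaptor that cGAS activates, was at 10.72 ± 0.48 and 9.40 ± 0.87, a difference of 1.31 ± 0.50 (SE, adjusted p = 0.280) that passed only with the 5′ signal block (adjusted p = 0.0492) among 17 settings. It was 1.62-fold without CMP 1 and 3.82-fold without CMP 2, against 2.49-fold with all arrays.

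Among other nucleases, 1 of 11 tested DNases and DNA exonucleases rose. This was Dnase1l1, a relative of DNase I, at log2 7.52, 8.35 and 7.74 in CDP and 3.99 and 4.87 in CMP, at least 7.30-fold higher (limma, adjusted p = 0.0296, tested through CDP alone). Dnase1l3, a secreted DNase of dendritic cells and macrophages, sat at the table's lowest value of 2.26 on all arrays. Atrip, whose gene adjoins Trex1, was at 5.51 ± 0.64 in CDP and 4.82 ± 0.62 in CMP on its own probe set, and did not pass (limma, adjusted p = 0.571). Of the other phospholipase D genes, Pld1 and Pld6 were below detection on all arrays. Pld2, a lipid-cleaving phospholipase D, rose at least 1.81-fold on a probe set that may match other transcripts (limma, adjusted p = 0.0480, tested through CDP alone), while its second probe set was below detection. Of 13 tested genes of RNase H2, RNA editing and RNA decay, 0 passed, and the median difference was -0.08.

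Genes that handle nucleotides showed 1 call in each list. Of 17 tested genes of deoxynucleotide supply, whose products SAMHD1 breaks down, Tyms, which encodes thymidylate synthase, rose 4.61-fold (limma, adjusted p = 0.0456) and 16 did not pass. Its second tested probe set differed by 0.34 (adjusted p = 0.723). Of 14 tested genes of nucleotide and nucleoside breakdown and export, Slc29a3 rose and 13 did not pass. Slc29a3 encodes a nucleoside transporter of lysosomes, where nuclease products end up. It was at log2 9.76, 10.26 and 10.17 in CDP and 8.10 and 8.10 in CMP, 3.90-fold higher (limma, adjusted p = 0.0498). The medians of the 2 lists were 0.21 and 0.14.

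**Figure D5:**
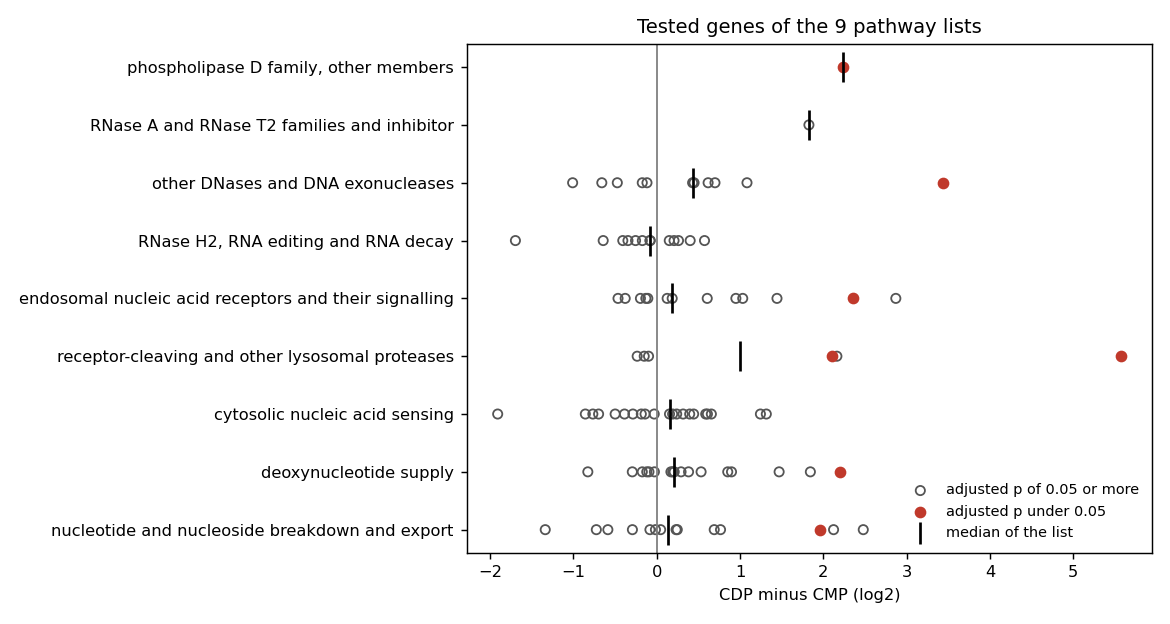
CDP minus CMP (log2, x axis) for each tested gene of the 9 lists (y axis), filled red where the adjusted p was under 0.05, with a vertical mark at the list's median. The 7 filled points all lie above 0, from 1.96 for Slc29a3 to 5.57 for Lgmn, and the 90 open points lie on both sides of 0.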

How the data were processed

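The deposited table holds log2 expression values that the authors made with GCRMA, per the submitters' processing notes, which corrects background, normalizes between arrays and summarises probes. Its version is not given in the sources used here. The values were not normalized again. The platform annotation named the probe sets (34945 of 45037 with 1 symbol). Groups came from the sample titles, and that of CDP 3 starts with CM, not BM as elsewhere. The members, gene lists and settings were chosen with earlier results of these data known. Named genes were all member probe sets, the called genes of a list up to 4, ranked by p, and 12 fixed genes of sensing and clearance. Rnaset2b, 1 of these, had no probe set named here. Probe sets with at least 2 of 5 arrays at log2 5 (16552) were compared in R 4.3.3 by limma 3.58.1 (lmFit, then eBayes), 2-sided, with Benjamini-Hochberg adjustment over all of them and a threshold of 0.05. The smaller group has 2 arrays. A gene's brightest tested probe set was used in list counts. Alternatives were other scalings, filters and variance models, array weights, blocks, other choices of probe sets and leaving out each array. The procedure was tested on simulated data. The number of arrays limits the precision.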

Additional observations from a re-analysis of the deposited data

How the results depend on the processing

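Tested probe sets had a median log2 difference of 0.116, or 0.00256 after quantile normalization, so differences of that size carry no direction. Of all tested probe sets 217 were called higher and 70 lower in CDP. These became 1024 and 414 with the block for 5′ signal, 29 and 26 without a filter, and 45 lower with the filter at log2 7. Among the 97 tested pathway genes, 7 were called higher. This became 15 higher and 1 lower with the block for 5′ signal, 0 higher without a filter, 2 with the filter at log2 4, 4 with quantile normalization or a trended prior, and 3 with median scaling. Leaving out 1 array gave 0 to 42 probe sets higher and 0 to 2 lower, and 0 to 1 pathway genes higher (1490 to 3200 probe sets at an unadjusted p under 0.05 in limma). With the replicate number as a block 432 probe sets were called higher and 176 lower, and 10 pathway genes. Deviations from the group means correlated at 0.61 and 0.58 between arrays numbered 1 and 2, but no label says that the numbers pair samples, and with 2 pairs the block is given only here. CDP 1 and CMP 1 are also the arrays low in 5′ signal, so the 2 blocks nearly coincide. Of the 7 called pathway genes, each kept its direction in every setting, and Lgmn was called in 12 of 17, Dnase1l1 in 11 of 17, Irf5 in 10, Ctss in 8, Tyms in 6, Slc29a3 in 5 of 17 and Pld2 in 3 of 15. The cause of these changes was not tested, beyond the fewer arrays or the larger number of probe sets by construction. Values below log2 5 limit what can be said of Pld3, Rnase4 and the Toll-like receptors.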
